A study of Mus musculus with 6 samples.

Results

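The genes described here are 10 components of the basement membrane other than the laminins: the collagen IV chains Col4a1 to Col4a5, collagen XVIII (Col18a1), the nidogens Nid1 and Nid2, perlecan (Hspg2) and agrin (Agrn). They were taken by name, each read from the probe set listed for that gene alone with the brightest mean, and all 10 were found among the 22180 genes so measured. Gene expression had been measured in IMCD cells, a mouse line from the inner medullary collecting duct. By their titles, 3 arrays are of cells overexpressing ILK-T173I and 3 of cells of the same line overexpressing wild-type ILK (WT). ILK, integrin-linked kinase, is an adaptor at the sites where integrins hold the matrix, and T173I is a missense variant of it. Cells of both groups bore a lentiviral vector that also encodes GFP, had EGF (20 ng/ml) added for 15 minutes, and RNA was taken 1 hour later. No array of unstimulated or untransduced cells is among the 6, and the sources used here do not give how many stable lines stand behind a group, so a difference between lines and one between variants cannot be told apart. The labels call the arrays of a group biological replicates without saying what was repeated, and the p-values below measure only the spread between these arrays.

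A basement membrane is a thin sheet of matrix that epithelial cells secrete and stand on. Collagen IV chains wind into triple helices that join end to end into a covalent network, and laminins form a second network that integrins bind. Nidogens bridge the networks. Perlecan, agrin and collagen XVIII carry heparan sulfate chains, which hold growth factors and water. In the kidney, Col4a1 and Col4a2 form the collagen IV of all tubules, while Col4a3, Col4a4 and Col4a5 form that of the glomerular filter and of some tubules and are the genes mutated in Alport syndrome.

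Values are log2 signals made by the authors with RMA, which gives the arrays like signal distributions. Array medians lay between 5.45 and 5.52. The signal of a probe set also depends on its probes, so levels of different genes are not compared. Of the epithelial markers, Cdh1 (E-cadherin) was at 11.2 to 11.4 on T173I arrays and 11.3 on each WT array, and Hoxb7, a transcription factor of the ureteric bud lineage, was at 9.16 to 9.25 on T173I arrays and 9.05 to 9.11 on WT arrays. Some other markers of that list were less even. In 5 of its 12 tested genes the groups did not overlap, against 15.2% of all tested genes. The keratins Krt19, Krt8 and Krt18 had differences (T173I minus WT) of 1.62, 0.64 and 0.44 with every T173I array above all WT arrays, Gata3, which regulates collecting duct genes, had -0.78 with every T173I array below, and Scnn1g, a sodium channel subunit, had -1.19 with overlap (limma adjusted p = 0.45 to 0.49). Epcam, Aqp2, Scnn1a, Hsd11b2 and Avpr2 overlapped, with differences of -0.17, 0.041, -0.048, -0.076 and -0.30 (limma adjusted p = 0.71 to 0.89). Aqp2 was at 5.97 to 6.25 on T173I arrays and 6.01 to 6.09 on WT arrays. Of the 17 epithelial and collecting duct markers, Aqp3, Scnn1b, Tfap2b, Elf5 and the urea transporter Slc14a2 had means at or under 5.37, the limit below which the dimmest 40% of genes were not tested. All 6 endothelial markers were below it, as were 5 of 8 fibroblast markers, Col3a1, Pdgfra, Pdgfrb, Lum and Dcn. The other fibroblast markers were above it. Col1a1 was at 6.19 to 6.42 on T173I arrays and 6.10 to 6.21 on WT arrays. Col1a2 was at 5.42 to 5.50 and 5.41 to 5.59. Postn was at 8.05, 5.49 and 4.30 on T173I replicates 1 to 3, against 4.65, 6.05 and 6.26 on the WT arrays. The summed linear signal of the 8 was 288 to 524 on T173I arrays and 284 to 361 on WT arrays. Of 6 macrophage and leukocyte markers, Ptprc, the defining marker of leukocytes, Adgre1 and Lyz2 were below the limit for testing. Cd68, Cd14 and Csf1r were tested, with differences of 1.10, -1.37 and -0.78 (limma adjusted p = 0.45 each). In each of these 3 the groups did not overlap, against 15.2% of all tested genes. The summed linear signal of these 6 was 705 to 1064 on T173I arrays and 686 to 833 on WT arrays. The part of the marker differences in the results below was not tested. T173I replicate 1 stood apart from the other T173I arrays: on the first principal component, with 57.4% of the variance, it lay at -11.4, within the WT range of -18.3 to -11.3, against 38.3 and 15.8 for T173I replicates 2 and 3. Results are therefore also given without it, a choice made after its values were seen. As it was picked for lying near the WT arrays, leaving it out favours larger group differences. The p-values without it are therefore descriptive only. The array weights of limma were lowest for T173I replicate 2 (0.36), with 0.41 for T173I replicate 1.

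No difference between the groups in the 10 genes passed the test. Of the 8 that were tested, 0 had an adjusted p under 0.05 in limma's test of T173I against WT (lowest adjusted p 0.49), as was so for 0% of the 13308 genes tested. At an unadjusted p under 0.05 there were also 0 of 8, against 10.2% of all tested genes. That count rests on the settings: it was 2, Col4a3 and Col4a4, with array weights or the replicate block, and 1, Col4a3, with the stricter filter, repeated quantile normalization or cyclic loess. The nidogens Nid1 and Nid2 were too dim for the test. Col4a3 and Col4a4 had the largest differences, both lower in T173I, and Agrn and Col18a1 were the only ones of the 10 with positive differences. In RNA from whole cultures, fewer cells expressing a gene and less RNA per cell cannot be told apart. The median difference of the 10 genes was -0.079 log2 units. That of the 8 tested was -0.11, and that of all tested genes was -0.011. The T173I and WT arrays did not overlap for 2 of the 10, Col4a3 and Agrn. These are 25% of the 8 tested, against 15.2% of all tested genes.

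**Figure D1:**
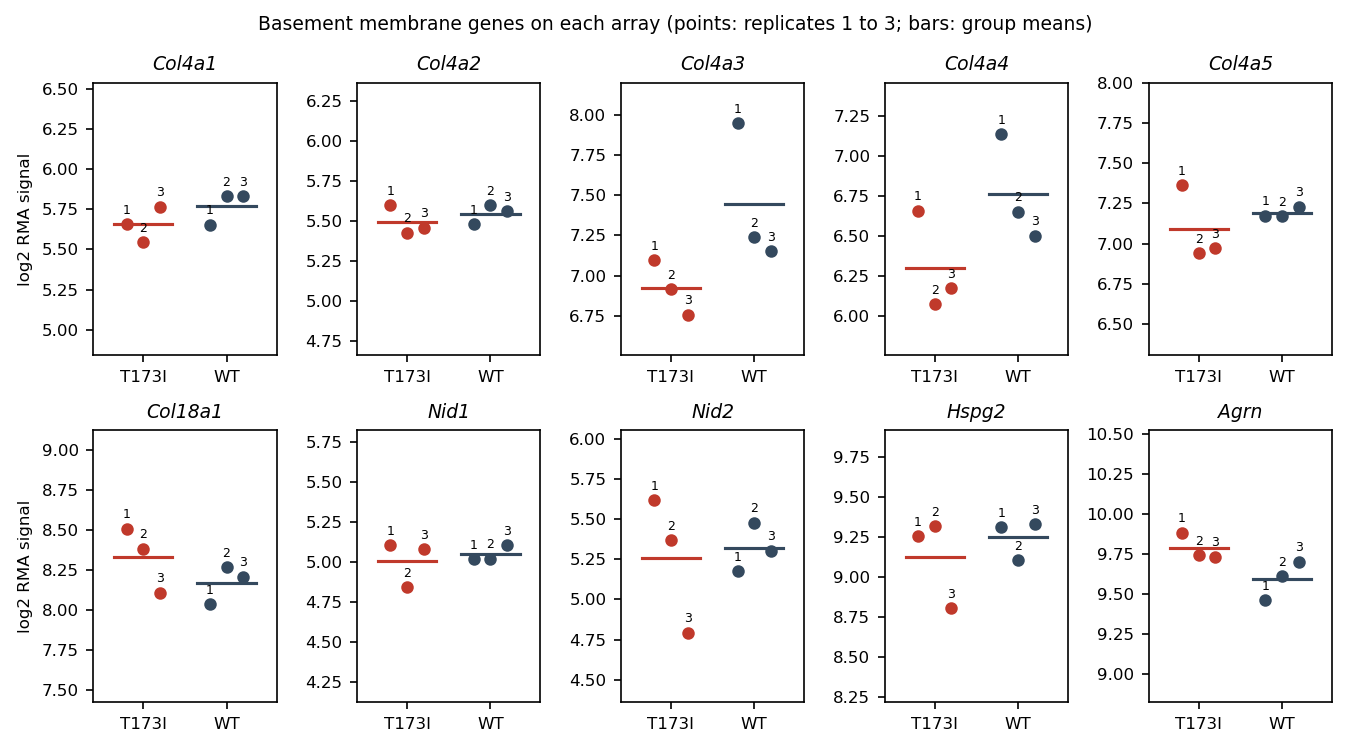
Log2 RMA signal (vertical axis) of the 10 basement membrane genes on the 3 T173I arrays (red, left) and the 3 WT arrays (dark, right) of each panel; points are arrays numbered by replicate, bars are group means, and all panels span the same number of log2 units. Only in Col4a3 and Agrn do the groups not overlap, by 0.057 and 0.033 log2 units.

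Col4a3 encodes a chain of the minor collagen IV network. Its signal was 7.10, 6.91 and 6.75 on T173I replicates 1 to 3, against 7.95, 7.24 and 7.15 on WT replicates 1 to 3. All T173I arrays were below all WT arrays, and the highest T173I and the lowest WT array were 0.057 log2 units apart. WT replicate 1 was the high array of its group. The means were 6.92 ± 0.17 in T173I and 7.45 ± 0.44 in WT (SD, n = 3 each), a difference of -0.53 (95% interval -1.06 to 0.0049, limma adjusted p = 0.49). Without WT replicate 1 the difference was -0.27, and without T173I replicate 1 it was -0.61.

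Col4a4, the chain that pairs with Col4a3 in that network, was at 6.66, 6.08 and 6.17 on the T173I arrays, against 7.14, 6.65 and 6.50 on the WT arrays. T173I replicates 2 and 3 lay below all WT arrays, while T173I replicate 1 lay within the WT range, and WT replicate 1 was again the highest array. The difference was -0.46 (95% interval -0.98 to 0.054, limma adjusted p = 0.50). It was -0.28 without WT replicate 1 and -0.64 without T173I replicate 1 (limma adjusted p = 0.15).

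Col4a5, the X-linked chain of the same network, had 7.36, 6.94 and 6.97 on the T173I arrays, against 7.17, 7.17 and 7.23 on the WT arrays. T173I replicate 1 was above and T173I replicates 2 and 3 were below all WT arrays, so the group mean hides arrays on opposite sides. The SD was 0.24 in T173I and 0.034 in WT (n = 3 each), and the difference was -0.10 (95% interval -0.41 to 0.20, limma adjusted p = 0.78). Without T173I replicate 1 it was -0.24 (limma adjusted p = 0.17). Without that array 2 of the 8 tested members, Col4a4 and Col4a5, had an unadjusted p under 0.05, both lower, where 22.1% of all tested genes passed that threshold and 12.3% did so as lower. Still without that array, 0 of the 8 had an adjusted p under 0.05, where 1.17% of all tested genes did, and the groups did not overlap in 5 of the 8, where they did not in 39.6% of all tested genes.

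Podocytes, the glomerular cells that secrete this network, are not cells of the collecting duct, and their markers were read beside it. Of 6 podocyte markers 4 had a probe set of their own. The mean log2 signal of those 4 was 5.94 to 6.0003 on T173I arrays and 6.10 to 6.26 on WT arrays, and their summed linear signal was 259 to 290 on T173I arrays and 279 to 319 on WT arrays. Nphs1, which encodes nephrin, the defining protein of the podocyte slit diaphragm, was at 5.78 to 5.80 on T173I arrays and 5.71 to 5.83 on WT arrays. Synpo, an actin-binding protein, had a difference of -0.66 (limma adjusted p = 0.49), and without T173I replicate 1 it fell by 1.00 (limma adjusted p = 0.032). Podxl, which encodes podocalyxin, had 0.096 with all arrays and 0.53 without T173I replicate 1 (limma adjusted p = 0.17). The part of these signals in the collagen values was not tested.

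Col4a1 and Col4a2, the chains of the widespread collagen IV network, were measured only a little above the limit for dim genes. Col4a1 was at 5.66, 5.55 and 5.77 on the T173I arrays, against 5.65, 5.83 and 5.83 on the WT arrays. The groups overlapped, with T173I replicate 2 alone below the WT range. The difference was -0.12 (95% interval -0.35 to 0.12, limma adjusted p = 0.66). Col4a2 was at 5.60, 5.42 and 5.46 on the T173I arrays, against 5.48, 5.60 and 5.56 on the WT arrays. T173I replicates 2 and 3 were slightly below the WT range and replicate 1 at its upper end. The difference of Col4a2 was -0.053 (95% interval -0.26 to 0.15, limma adjusted p = 0.82). The intervals of both genes lie between -0.35 and 0.15 log2 units.

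**Figure D2:**
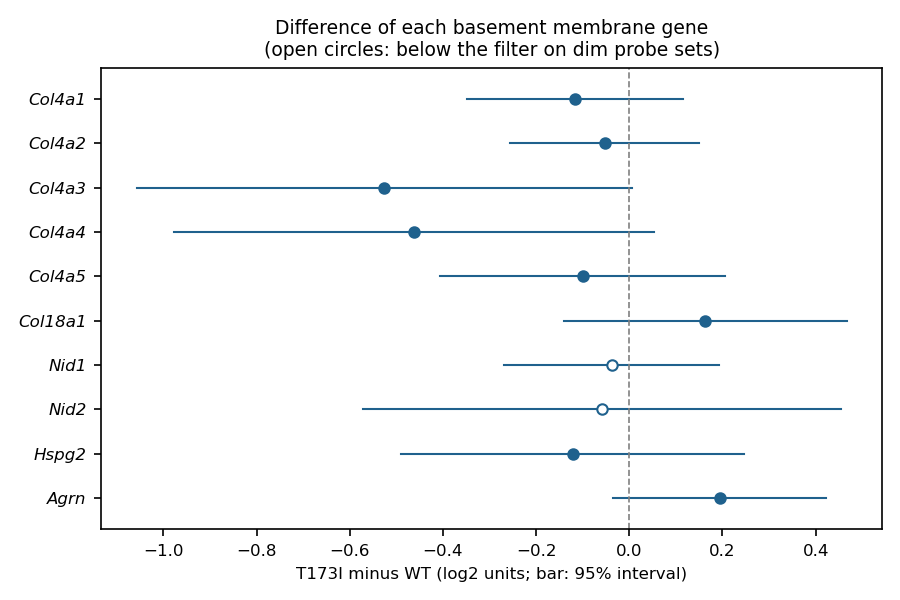
Difference of each of the 10 genes, T173I minus WT in log2 units (horizontal axis), with the 95% interval of the limma fit; filled circles are the 8 genes tested and open circles the nidogens, read from the fit without a filter. All 10 intervals include 0, and Col4a3 has the largest difference, at -0.53.

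The collagen IV genes lie head to head in pairs, Col4a1 with Col4a2, Col4a3 with Col4a4 and Col4a5 with Col4a6, each pair transcribed outwards from a common region. Promoter windows from 250 bases before to 50 after the start, credited to RefSeq on GRCm38.p6, were found for 8 of the 10 genes. The window of Col4a1 (chr8:11312777-11313076, minus strand) and that of Col4a2 (chr8:11312555-11312854, plus strand) share 78 bases. The windows of Col4a6 and Col4a5 on chromosome X are 842 bases apart. The windows of the pair with the smallest differences and of Col4a4 (chr1:82586800-82587099, minus strand), from the pair with the largest, are printed 5′ to 3′, with GC boxes (GGGCGG) and CCAAT boxes (CCAAT) on either strand in capitals.
Col4a1: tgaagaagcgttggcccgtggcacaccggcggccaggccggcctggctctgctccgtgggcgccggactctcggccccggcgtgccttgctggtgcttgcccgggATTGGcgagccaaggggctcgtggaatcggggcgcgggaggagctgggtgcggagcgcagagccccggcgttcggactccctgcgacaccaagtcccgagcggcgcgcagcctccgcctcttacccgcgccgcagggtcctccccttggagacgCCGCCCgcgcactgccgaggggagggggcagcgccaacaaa
Col4a2: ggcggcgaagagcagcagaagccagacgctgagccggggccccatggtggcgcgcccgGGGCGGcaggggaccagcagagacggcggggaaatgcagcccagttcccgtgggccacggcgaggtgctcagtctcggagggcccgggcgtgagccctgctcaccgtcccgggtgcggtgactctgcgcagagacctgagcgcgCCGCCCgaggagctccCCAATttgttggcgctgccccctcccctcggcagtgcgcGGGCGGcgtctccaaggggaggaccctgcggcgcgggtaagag
Col4a4: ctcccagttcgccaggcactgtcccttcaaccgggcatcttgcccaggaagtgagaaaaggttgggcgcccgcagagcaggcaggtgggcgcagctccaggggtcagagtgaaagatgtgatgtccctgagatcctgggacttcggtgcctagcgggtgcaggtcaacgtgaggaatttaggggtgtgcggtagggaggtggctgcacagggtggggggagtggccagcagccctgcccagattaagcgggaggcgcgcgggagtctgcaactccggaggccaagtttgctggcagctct
The Col4a1 window held 1 GC box and 1 CCAAT box, that of Col4a2 3 and 1, and that of Col4a4 neither. The GC box of Col4a1 lies in the shared stretch and appears on both lines. A GC box was present in the first window of 7 of the 8 genes and a CCAAT box in that of 5, while 35.7% and 37.4% of all 32851 windows in the table held them. These first windows had 52.7% (Col4a5) to 83.3% (Agrn) G and C, against a median of 52.7% over all windows. The shares thus compare windows of unlike base composition. None of the windows of the 8 genes held an AP-1 site (TGACTCA, either strand), which 5.20% of all windows held. A match or its absence describes these letters only.

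The partners of a pair were compared over the 6 arrays by the root mean square distance between their signals, each gene centred on its own mean, a choice made after their values were seen. Col4a4 was the 12th nearest of 13307 tested genes to Col4a3, at a distance of 0.14 log2 units, and Col4a3 the 67th nearest to Col4a4, with Pearson's r = 0.93 and Spearman's rho = 0.77. Both had WT replicate 1 highest and T173I replicates 2 and 3 lowest. Col4a2 ranked 616th for Col4a1 and Col4a1 1879th for Col4a2 (0.087 log2 units, r = 0.57, rho = 0.60), and Col4a6 ranked 1206th for Col4a5 and Col4a5 1242nd for Col4a6 (0.11 log2 units, r = 0.75, rho = 0.77). These correlations describe 6 arrays that share a cell line and hold the group difference itself. A rank also depends on how widely a gene varies: Col4a1 and Col4a2 lay nearer each other than Col4a3 and Col4a4 did, yet ranked lower. Ranks are therefore not compared between pairs. Col4a6 was at 6.45, 6.03 and 6.31 on the T173I arrays, against 6.55, 6.37 and 6.46 on the WT arrays, a difference of -0.20 (limma adjusted p = 0.57). By the same distance the 5 genes nearest to Col4a1 were Vps35, Phf20, C1rl, Cnot6l and D330023K18Rik, at 0.027 to 0.043 log2 units.

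Nid1 and Nid2 encode the nidogens, which link laminin to collagen IV and perlecan. Nid1 was at 5.10, 4.84 and 5.08 on the T173I arrays, against 5.01, 5.02 and 5.10 on the WT arrays. Its difference in the fit without a filter was -0.038 (95% interval -0.27 to 0.19, limma adjusted p = 0.91). T173I replicate 1 and WT replicate 3 had exactly the same deposited value. Nid2 was at 5.62, 5.37 and 4.79 on the T173I arrays, against 5.18, 5.48 and 5.30 on the WT arrays, a difference of -0.058 in the same fit (95% interval -0.57 to 0.45, limma adjusted p = 0.94). T173I replicate 1 was above and replicate 3 below the WT range. The files hold no detection calls, so the values do not show whether either gene was expressed.

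Hspg2 encodes perlecan, a large proteoglycan that binds nidogen, laminin and growth factors. It was at 9.26, 9.32 and 8.80 on the T173I arrays, against 9.31, 9.10 and 9.33 on the WT arrays. T173I replicate 3 alone was below the WT range. The difference was -0.12 (95% interval -0.49 to 0.25, limma adjusted p = 0.78), and without T173I replicate 3 its sign turned, to 0.039. The 5 genes nearest to Hspg2 by pattern, Krt71, Plekhm1, Isoc2a, Cxxc1 and Magee1, lay at 0.065 to 0.072 log2 units from it over 6 arrays.

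Agrn encodes agrin, a heparan sulfate proteoglycan that binds laminin and dystroglycan. It was at 9.89, 9.74 and 9.73 on the T173I arrays, against 9.46, 9.61 and 9.70 on the WT arrays. All T173I arrays were above all WT arrays, the nearest pair by 0.033 log2 units. The means were 9.79 ± 0.085 in T173I and 9.59 ± 0.12 in WT (SD, n = 3 each), a difference of 0.19 or 1.14-fold (95% interval -0.034 to 0.42, limma adjusted p = 0.52). It ranged from 0.13 to 0.25 when each array was left out in turn.

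Col18a1 encodes collagen XVIII, from which the fragment endostatin is released. It was at 8.51, 8.39 and 8.11 on the T173I arrays, against 8.04, 8.27 and 8.21 on the WT arrays. T173I replicates 1 and 2 were above the WT range and replicate 3 within it. The difference was 0.16 (95% interval -0.14 to 0.47, limma adjusted p = 0.64), and it was 0.075 without T173I replicate 1 and 0.011 with array weights.

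Array by array, T173I replicate 1 had 7 of the 10 genes above the WT mean, T173I replicate 2 had 4 and T173I replicate 3 had 2. The WT replicates 1 to 3 had 3, 5 and 7. The median deviation from the WT mean was 0.054, -0.16 and -0.16 log2 units on the T173I arrays, against -0.049 to 0.038 on the WT arrays. The SD was larger in T173I for 7 of the 10 genes, as it was for 70.6% of all tested genes.

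**Figure D3:**
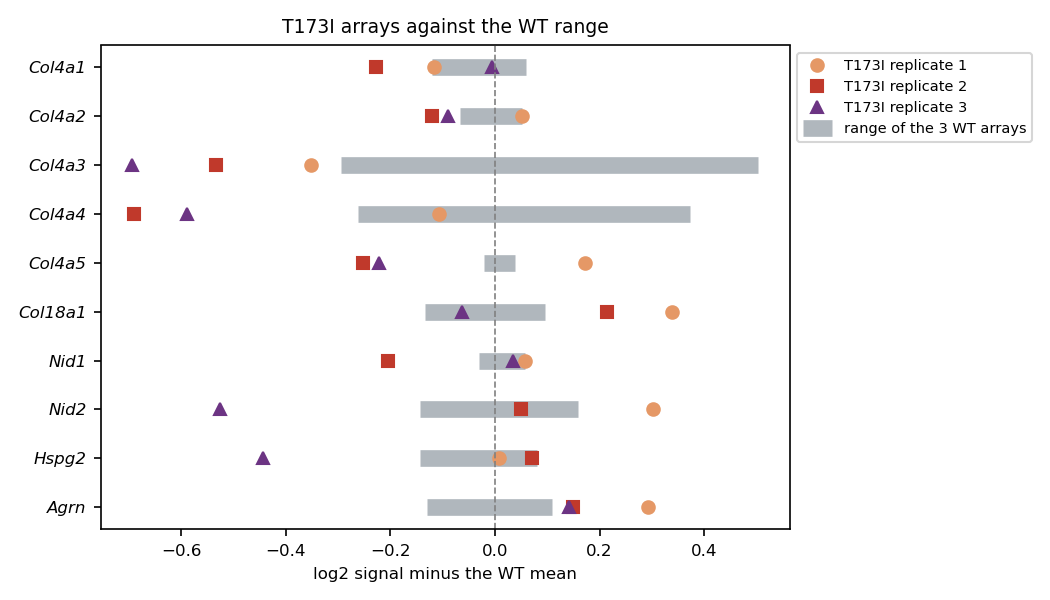
Log2 signal minus the WT mean (horizontal axis) of each gene on the 3 T173I arrays (symbols), with the range of the 3 WT arrays as a grey band. Col4a5 and Nid2 have T173I arrays on both sides of the WT band, and Hspg2 departs from it on T173I replicate 3 alone.

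Genes whose products work on or with these components were read from the same fit, and 0 of the tested members of each list below passed over all genes tested. In the list of heparan sulfate synthesis and editing, which builds the chains of perlecan, agrin and collagen XVIII, an unadjusted p under 0.05 was found for 5 of 18 tested genes that were lower and 1 that was higher, where 5.31% of all tested genes were lower and 4.88% higher. The list's median difference was -0.16, against -0.011 over all tested genes. Hs6st2, a sulfotransferase of heparan sulfate, was at 5.93, 6.67 and 6.69 on the T173I arrays, against 7.45, 7.18 and 7.41 on the WT arrays. All T173I arrays were below all WT arrays, with a difference of -0.92 (95% interval -1.44 to -0.40, limma adjusted p = 0.45). Hs2st1, another sulfotransferase of these chains, had a difference of -0.29 (limma adjusted p = 0.45), and B3galt6, which makes part of the linker between chain and core protein, one of -0.31 (0.47). Hs6st1, named after its values were seen, was at 11.3, 10.2 and 10.1 on the T173I arrays, against 11.4, 11.1 and 11.3 on the WT arrays. Without T173I replicate 1, whose value lay within the WT range, its difference was -1.16 and it passed (limma adjusted p = 0.023). It was the only one of the 18 to do so, where 1.17% of all tested genes did. Without that array 8 of the 18 were lower and 2 higher at the unadjusted threshold, where 12.3% and 9.83% of all tested genes were.

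Among genes of collagen biosynthesis and crosslinking, an unadjusted p under 0.05 was found for 2 of 17 tested genes that were higher and 2 that were lower, where 4.88% of all tested genes were higher and 5.31% lower. The list's median difference was 0.11. Without T173I replicate 1 the counts were 3 higher and 1 lower, where 9.83% and 12.3% of all tested genes were. P4ha1, a catalytic subunit of the prolyl hydroxylase that stabilises the collagen helix, was at 9.99, 10.3 and 10.3 on the T173I arrays, against 9.33, 9.55 and 9.03 on the WT arrays. All T173I arrays, replicate 1 included, were above all WT arrays, with a difference of 0.90 (95% interval 0.52 to 1.27, limma adjusted p = 0.43). P4ha3, another catalytic subunit of that enzyme, had a difference of -0.81 (limma adjusted p = 0.46), and Plod2, a lysyl hydroxylase of collagens, one of 0.33 (0.45). Pxdn, named after its values were seen, encodes peroxidasin, which forms the sulfilimine crosslinks of collagen IV. It was at 9.17, 8.95 and 9.20 on the T173I arrays, against 9.56, 9.22 and 9.49 on the WT arrays, a difference of -0.31 (95% interval -0.60 to -0.021, limma adjusted p = 0.49).

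**Figure D4:**
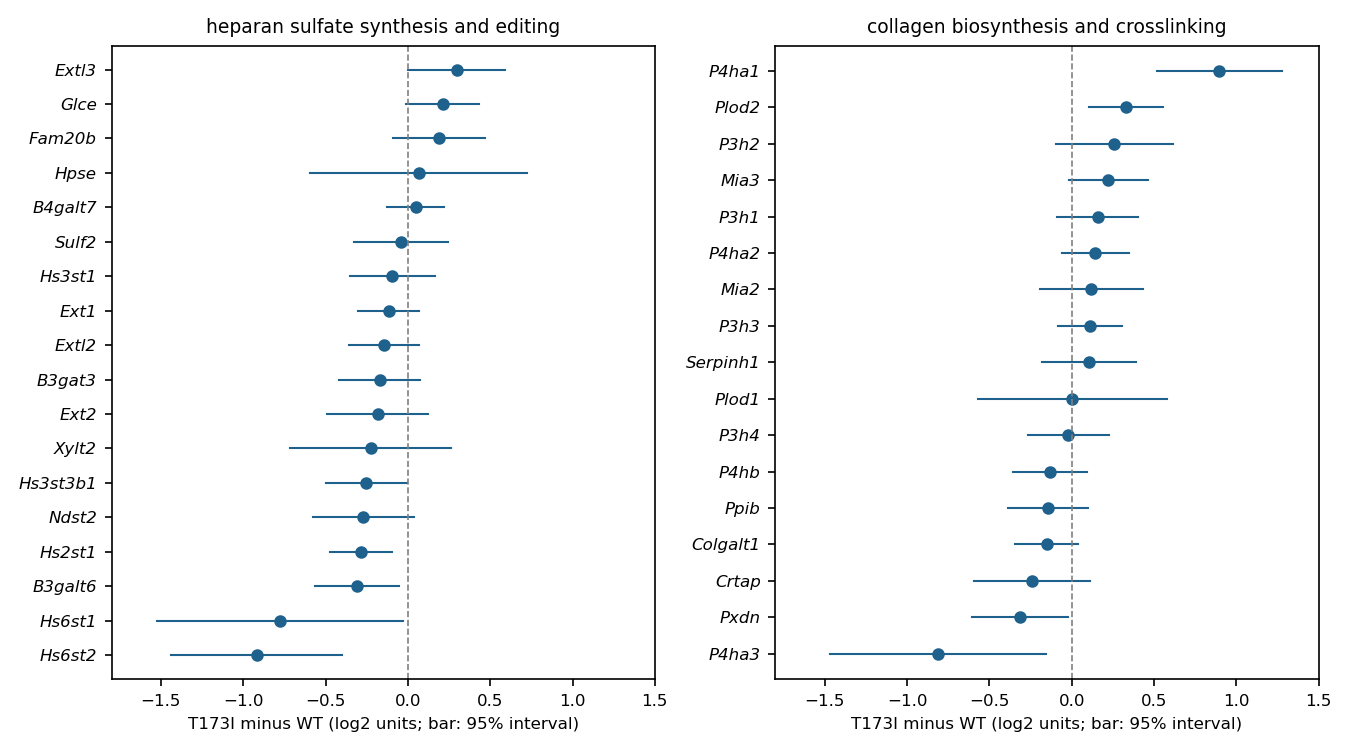
Difference, T173I minus WT in log2 units (horizontal axis), of the tested genes of heparan sulfate synthesis and editing (left, 18 genes) and of collagen biosynthesis and crosslinking (right, 17 genes), with 95% intervals of the limma fit. Hs6st2 has the most negative value of the left panel, at -0.92, and P4ha1 the most positive of the right, at 0.90.

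Of 12 receptors of basement membranes, 9 were tested, and an unadjusted p under 0.05 was found for 1 that was higher and 1 that was lower, where 4.88% of all tested genes were higher and 5.31% lower. Without T173I replicate 1 the counts were 2 higher and 5 lower of the 9, where 9.83% and 12.3% of all tested genes were. Itga2, the alpha subunit of a collagen-binding integrin, was at 8.11, 7.42 and 8.50 on the T173I arrays, against 9.88, 9.14 and 8.84 on the WT arrays, with no overlap and a difference of -1.28 (limma adjusted p = 0.45). Itga3, the alpha subunit of a laminin-binding integrin, had a difference of 0.77 (limma adjusted p = 0.45), and Itga6, of another laminin-binding integrin, one of 0.78 (0.52). Itga1, named after its values were seen, encodes the alpha subunit of an integrin that binds collagen IV. It was at 7.84, 5.65 and 5.67 on the T173I arrays, against 7.18, 7.20 and 7.18 on the WT arrays. T173I replicate 1 was above and replicates 2 and 3 were below the WT range, an order also seen for Bcam and Ddr1 of this list. The share of all tested genes with that order was not counted. Its difference was -0.80 (limma adjusted p = 0.61), and without T173I replicate 1 the difference was -1.53 (limma adjusted p = 0.0053).

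Of the laminin chains, which share the basement membrane with the 10 genes, 6 of 11 were tested, with 1 higher and 0 lower at the unadjusted threshold, against 4.88% and 5.31% of all tested genes. Lamb3 and Lama3, chains of the laminin that anchors hemidesmosomes, had differences of 1.26 and 0.79 (limma adjusted p = 0.49 each), and Lamb2 one of -0.27 (0.52). Without T173I replicate 1, Lamb3 and Lama3 passed, with differences of 1.89 and 1.22 (limma adjusted p = 0.027 and 0.031), where 1.17% of all tested genes did; whether the laminins differ in this from the collagen IV and proteoglycan genes was not tested. Of 15 tested genes for other basement membrane components, 0 had an unadjusted p under 0.05, against 10.2% of all tested genes. Those with the smallest p were Ntn4 (netrin-4, which binds laminin), with a difference of -0.57, Col4a6, and Papln (papilin), with 0.18. Leaving out each array in turn moved Ntn4 between -0.94 (without T173I replicate 1) and -0.27 (without T173I replicate 3), and Papln between 0.048 (without T173I replicate 1) and 0.29 (without T173I replicate 2). Of 10 tested proteases and inhibitors of the basement membrane, 0 had an unadjusted p under 0.05, against the same 10.2%. With so few genes in a list, a count of 0 says little. Those with the smallest p were Timp1, an inhibitor of metalloproteinases, with a difference of 0.56, the protease cathepsin L (Ctsl), with -0.14, and Adamts1, a protease, with 0.40. Leaving out each array in turn moved Timp1 between 0.31 (without T173I replicate 2) and 0.79 (without T173I replicate 1), Ctsl between -0.18 (without WT replicate 1) and -0.071 (without WT replicate 3), and Adamts1 between 0.13 (without WT replicate 1) and 0.68 (without T173I replicate 3), with 0.056 for Adamts1 under array weights.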

How the data were processed

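RNA of 6 samples was measured on Affymetrix whole-transcript arrays, 1 per sample. The deposited log2 values were made by the authors with RMA, per the submitters' processing notes; the sources used here do not give its version. RMA makes signal distributions alike, so a shift of most genes in 1 direction would not be seen. Arrays have no read depth, and their number limits the precision.

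Of 41345 probe sets, 23521 have 1 gene symbol in the platform annotation, 1814 have several and 16010 are unlisted and unnamed here. Symbols were updated through Entrez identifiers for the 23328 found in the mouse table of GRCm38.p6. A gene's brightest probe set stood for it. Each of the 10 genes had 1 probe set, except Nid1 with 2, and none had a probe set shared with another symbol. Genes in the lowest 40% by mean signal, at or under 5.37, were dropped, which left 13308 for testing.

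T173I was compared with WT using limma (version 3.58.1, R 4.3.3; lmFit and eBayes, all 6 arrays, no covariate, two-sided) with Benjamini-Hochberg adjustment over the tested genes and a threshold of 0.05. The code was tested on simulated data. The exact permutation test of 3 against 3 arrays cannot go below p = 0.1 and was not used. The members and lists, and the tests, were chosen with earlier results of these data known. The naming rule took the 10 genes, the 3 smallest unadjusted p of each list, and the 5 genes nearest in pattern to Col4a1 and to Hspg2. Alternatives covered the filter, probe set rule, normalization, eBayes prior, array weights, replicate block and leaving out each array. Exactly equal values on some pair of arrays were found in 2639 of the 13308 genes, and in Col4a1, Col4a2 and Nid1 among the 10 genes. The tie of Col4a1 is between WT arrays, and those of Col4a2 and Nid1 are between groups. The WT SD of Col4a1 was 0.104, against a median of 0.098 over all tested genes. The cause of the ties and their effect on the spread the test sees were not tested.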

Additional observations from a re-analysis of the deposited data

How the results depend on the processing

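Under every alternative tried, 0 of the tested collagen IV, nidogen and proteoglycan genes passed the adjusted threshold. The lowest limma adjusted p among them was 0.19 with array weights, 0.32 with the replicate block and 0.15 without T173I replicate 1, and 0.45 to 0.59 in the other settings that kept all arrays. The stricter filter, at 60%, left 5 of them in the test. Over all genes, 0 passed in every setting except without T173I replicate 1, where 156 of 13308 did; leaving out each array in turn gave 0 to 156. The median difference of the 10 genes stayed between -0.15 and -0.037 when each array was left out, and was -0.12 with array weights. The number of the 10 genes that were tested and had an unadjusted p under 0.05 was 0 to 2 over all alternatives. Signs turned for 3 of the 10 genes. Nid1 had 0.013 with array weights and -0.085 to 0.045 when each array was left out. Nid2 ranged from -0.24 to 0.18 and Hspg2 from -0.22 to 0.039 when each array was left out. Of the genes nearest to Hspg2, Isoc2a ranged from -0.11 to 0.054, Cxxc1 from -0.15 to 0.10 and Magee1 from -0.12 to 0.066. The cause was not tested. Same-numbered arrays did not deviate together (correlations of 0.048 to 0.067), and were not taken as pairs; with the replicate block 0 genes passed, and 1508 had an unadjusted p under 0.05, against 1357 without it. The list counts without T173I replicate 1, and the choice of that array for the results of single genes, were made after seeing the data.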
